A study of Mus musculus with 4 samples.

Results

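Stop cassette-only regions are stretches of open chromatin that were found in both limb libraries of embryos with a stop cassette insertion and in neither wild-type library. ATAC-seq lists of peak summits, each 1 bp long, were compared at equal length. Every list was shortened to its 51701 highest peak scores, summits were extended by 250 bp on both sides, and overlapping intervals of all lists were merged. Of 51892 merged regions, 2708 were held by both stop cassette lists alone, which is 5.22% of the regions. The regions were chosen by the peak scores of all 4 libraries, so their number and scores are a description and were not tested.

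In ATAC-seq, Tn5 transposase inserts adaptors into DNA where nucleosomes are sparse, and sequenced fragments pile up at promoters, enhancers and insulators. Promoters of widely used genes are open in most cell types, whereas enhancers, which may lie far from the gene they act on, are open in the cell types that use them. In the limb bud, enhancers of patterning genes are often bound by homeodomain factors of the Hox, Dlx, Lhx and Msx families. GATA factors bind enhancers of blood and several other lineages, AP-1 dimers bind enhancers of many cell types, and CTCF binds insulators and the anchors of chromatin loops.

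Limbs came from mouse embryos at stage E11.5, forelimb and hindlimb together, of strain c57bl6.J X 129S6.sv. The mutant group carries a stop cassette insertion (called 3xpA in the titles), and the control group is wild type, with 2 libraries each. The series concerns loss of the Maenli lncRNA and limb malformations that depend on En1, a gene of ventral limb identity; the labels do not state where the cassette sits. Cells were fixed before transposition. Nothing in the labels says whether the libraries of a genotype came from separate embryos, and the peak names of both wild-type lists carry the same replicate number with different sub-numbers, so the spread between libraries may be technical.

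The deposited lists held 79083 and 107827 summits in stop cassette replicates 1 and 2, and 51701 and 68471 in wild-type replicates 1 and 2. At equal length the lowest score used was 5.02, 6.24, 1.30 and 3.74 in the same order; read counts are not in these lists, so depth is unknown. Peaks at the starts of limb mesenchyme markers were present for 8 to 11 of 14 genes per library, and at the starts of liver markers for 0 of 5. Blood markers had a peak at the start for 3 of 5 genes (Hbb-b1, Gata1 and Klf1) in both stop cassette lists and in wild-type replicate 1, and for 1 (Gata1) in wild-type replicate 2. Endothelial markers stood at 2 of 6 in every list.

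The sequences below come from the middle of stop cassette-only regions and were chosen to show what such regions look like: the highest-ranked region of the intronic, intergenic, start and coding exon classes, further high-ranked regions with GATA motif matches, and the regions nearest to the limb genes Tbx3 and Bmp4. All are 151 bases of the plus strand of NCBIM37, which is mm9, and capitals mark matches to the GATA motif (AGATAA), the AP-1 motif (TGANTCA) or the CTCF core (CCNNN followed by AGGNGGC) on either strand. The Pnpla6 intron sequence is chr8:3536155-3536305, the intergenic sequence for which Slc8a1 is the nearest protein-coding gene is chr17:82776755-82776905, the sequence at the start of Gm12839 is chr4:115255713-115255863, and the Ankrd40 coding exon sequence is chr11:94195811-94195961.
Pnpla6: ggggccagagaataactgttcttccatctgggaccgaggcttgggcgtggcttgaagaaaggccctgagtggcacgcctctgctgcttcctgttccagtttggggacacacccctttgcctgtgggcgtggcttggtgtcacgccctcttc
Slc8a1: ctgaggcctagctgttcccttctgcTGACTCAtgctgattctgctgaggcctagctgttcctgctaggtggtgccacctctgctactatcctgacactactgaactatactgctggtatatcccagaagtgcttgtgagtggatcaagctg
Gm12839: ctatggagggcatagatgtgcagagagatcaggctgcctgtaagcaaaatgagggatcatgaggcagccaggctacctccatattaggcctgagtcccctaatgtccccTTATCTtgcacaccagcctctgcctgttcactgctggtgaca
Ankrd40: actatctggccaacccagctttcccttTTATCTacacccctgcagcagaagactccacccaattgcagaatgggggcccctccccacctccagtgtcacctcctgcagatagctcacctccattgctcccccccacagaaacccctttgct

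The Nploc4 intron sequence is chr11:120267303-120267453, the Kdm3a intron sequence is chr6:71560019-71560169 and the Gata1 intron sequence is chrX:7548541-7548691. These 3 were picked after their motif matches had been seen. The Tbx3 sequence is chr5:119948606-119948756, in intergenic DNA, and the Bmp4 sequence is chr14:47184831-47184981, in an intron of E130120K24Rik. The Nploc4 and Kdm3a sequences each hold 2 GATA matches, the Gata1 sequence holds 1, the Tbx3 sequence holds 1 GATA and 2 AP-1 matches, and the Bmp4 sequence holds a CTCF core match. The Pnpla6 sequence, which ranked highest, holds no match to these motifs in the bases shown.
Nploc4: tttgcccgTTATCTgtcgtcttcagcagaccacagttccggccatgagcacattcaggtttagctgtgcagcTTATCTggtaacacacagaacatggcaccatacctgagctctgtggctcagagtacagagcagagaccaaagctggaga
Kdm3a: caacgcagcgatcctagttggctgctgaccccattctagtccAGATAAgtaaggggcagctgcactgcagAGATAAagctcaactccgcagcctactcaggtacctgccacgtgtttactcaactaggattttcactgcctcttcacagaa
Gata1: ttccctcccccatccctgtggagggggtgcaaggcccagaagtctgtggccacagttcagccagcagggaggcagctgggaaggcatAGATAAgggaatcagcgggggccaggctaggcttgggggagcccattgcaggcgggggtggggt
Tbx3: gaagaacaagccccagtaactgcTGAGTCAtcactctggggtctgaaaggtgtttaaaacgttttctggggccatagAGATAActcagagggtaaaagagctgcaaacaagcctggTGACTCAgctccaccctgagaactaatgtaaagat
Bmp4: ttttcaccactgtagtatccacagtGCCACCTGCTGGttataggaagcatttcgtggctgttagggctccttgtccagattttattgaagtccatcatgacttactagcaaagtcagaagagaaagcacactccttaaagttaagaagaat

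The scores of the stop cassette-only regions spanned most of the range that the rule allowed. In stop cassette replicate 1 the peak score, −log10 of a q-value, ran from 5.02 to 28.3 with a median of 8.52, and in stop cassette replicate 2 from 6.24 to 21.3 with a median of 8.12. As a percentile of the whole deposited list, from weakest to strongest, the regions ran from 34.6 to 94.1 in replicate 1 (median 62.7) and from 52.1 to 92.4 in replicate 2 (median 65.3). Regions held by all 4 lists had median percentiles of 84.9 and 89.7 in the same lists. The merged regions were 501 to 1486 bp wide, with a median of 530 bp.

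**Figure D1:**
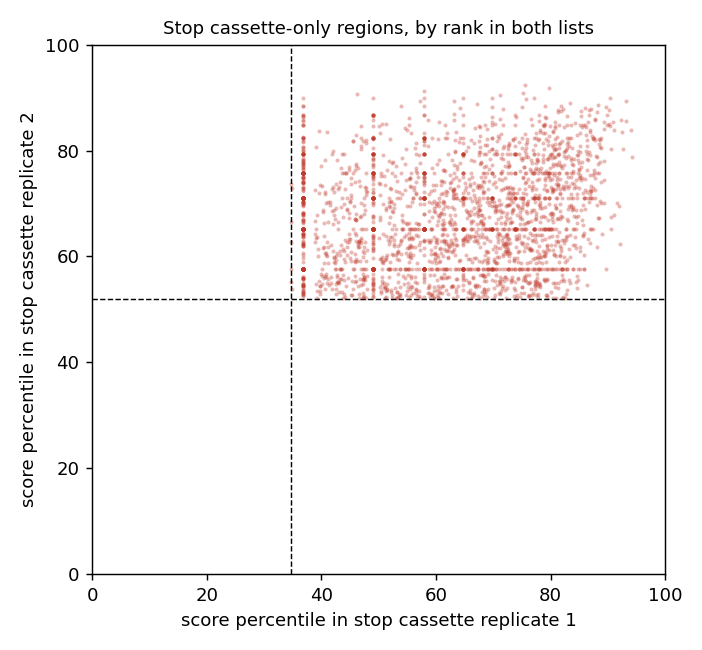
Score percentile of each stop cassette-only region in stop cassette replicate 1 (horizontal axis, percent) and replicate 2 (vertical axis, percent), 1 point a region; dashed lines mark where each list was shortened. Points reach 94.1 in replicate 1 and 92.4 in replicate 2, and rows and columns of points are tied scores.

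Absence from the wild-type lists was not equally complete in both. Wild-type replicate 1 is the shortest list and was used whole, so no stop cassette-only region held a summit of it, and its nearest summit was at a median of 11767 bp (lowest 504 bp). Distances were measured from the stop cassette summits of a region. Wild-type replicate 2 as deposited still had a summit within 500 bp, whose extended interval would overlap, for 685 of the 2708 regions (25.3%), below the score at which that list was shortened. The median distance to its nearest summit was 5578.5 bp. Of the 2708 regions, 1947 (71.9%) overlapped the 7483 regions obtained by the same rule from lists of full length.

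At the edge of the rule, the regions just inside and just outside were alike in score. In stop cassette replicate 1, regions nearest to Dnajb9, which encodes a chaperone partner of the endoplasmic reticulum, and Apol6 were kept at a score of 5.02, and a region near Rnf19b, a ubiquitin ligase gene, was left out at 5.02. In stop cassette replicate 2, a region near Immp2l was kept at 6.24 and a region near Gm17276 was left out at 6.24. Regions that missed the rule only because the summit in replicate 1 fell below its shortened list numbered 1187, and those that missed it through replicate 2 numbered 3353.

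Every other pair of lists also had regions of its own. The wild-type pair held 1159 regions alone (2.23%). Among the mixed-genotype pairs, stop cassette replicate 1 shared 635 regions with wild-type replicate 1 (1.22%) and 692 with wild-type replicate 2 (1.33%). Stop cassette replicate 2 shared 1327 with wild-type replicate 1 (2.56%) and 1908 with wild-type replicate 2 (3.68%). The stop cassette pair had the highest count of the 6 pairs. Its lead over the wild-type pair depended on the extension of the summits. The counts were 4627 and 4521 at 50 bp, 3912 and 2698 at 100 bp, and 2390 and 1084 at 500 bp. Among the mixed pairs, the lower counts were those with stop cassette replicate 1.

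Stop cassette-only regions lay mostly within genes or between them, not at promoters. Of the 2708 regions, 364 (13.4%, Wilson 95% interval 12.2 to 14.8) had an annotated transcript start within 1 kb, 1088 (40.2%) in introns further away and 1125 (41.5%) in intergenic DNA. Coding exons held 45 regions (1.66%), UTRs 58 (2.14%), exons of non-coding transcripts 24 (0.89%), and 4 regions lay on unplaced sequence. Intervals here and below cover counting error only. In regions held by all 4 lists, 61.6% lay within 1 kb of a start, and in all merged regions 32.3%. The share was 16.7% in the wild-type pair. It was 19.5% and 14.6% in the mixed pairs with stop cassette replicate 1, and 11.98% and 10.95% in those with replicate 2. At the extension of 250 bp, a low share at starts was thus not particular to the stop cassette-only regions. Their share at starts depended on the extension of the summits: it was 38.1% at 50 bp, 30.3% at 100 bp and 9.29% at 500 bp.

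By distance to the nearest start, these regions were closer to some of the control pairs than to others. Between 1 and 10 kb from a start lay 38.0% of the stop cassette-only regions (36.2 to 39.8). The share was 29.6% and 34.7% for the mixed pairs with stop cassette replicate 1, but 19.8% and 22.1% for those with replicate 2, and 22.3% for the wild-type pair. Beyond 100 kb lay 4.73% of the stop cassette-only regions (3.99 to 5.59), against 8.66% and 6.50% in the mixed pairs with stop cassette replicate 1 and 14.2% and 16.6% in those with replicate 2. The wild-type pair had 14.3% there.

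At the extension of 250 bp, regions of a single list showed the same division. Those of stop cassette replicate 1 alone (5793) lay between 1 and 10 kb from a start in 38.5% and beyond 100 kb in 4.63%. For regions of stop cassette replicate 2 alone (4235) these shares were 23.8% and 14.9%, and for wild-type replicates 1 and 2 alone they were 21.0% and 23.8% at 1 to 10 kb. The median distance was 9518.5 bp for stop cassette-only regions, 9375.5 bp for replicate 1 alone, 20873 bp for replicate 2 alone and 18213 bp for the wild-type pair. In these distances the stop cassette-only regions were close to the regions of stop cassette replicate 1 alone. Of those 5793 regions, 3353 had a summit of stop cassette replicate 2 below the score at which that list was shortened. The part of stop cassette replicate 1 in the result was not tested.

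**Figure D2:**
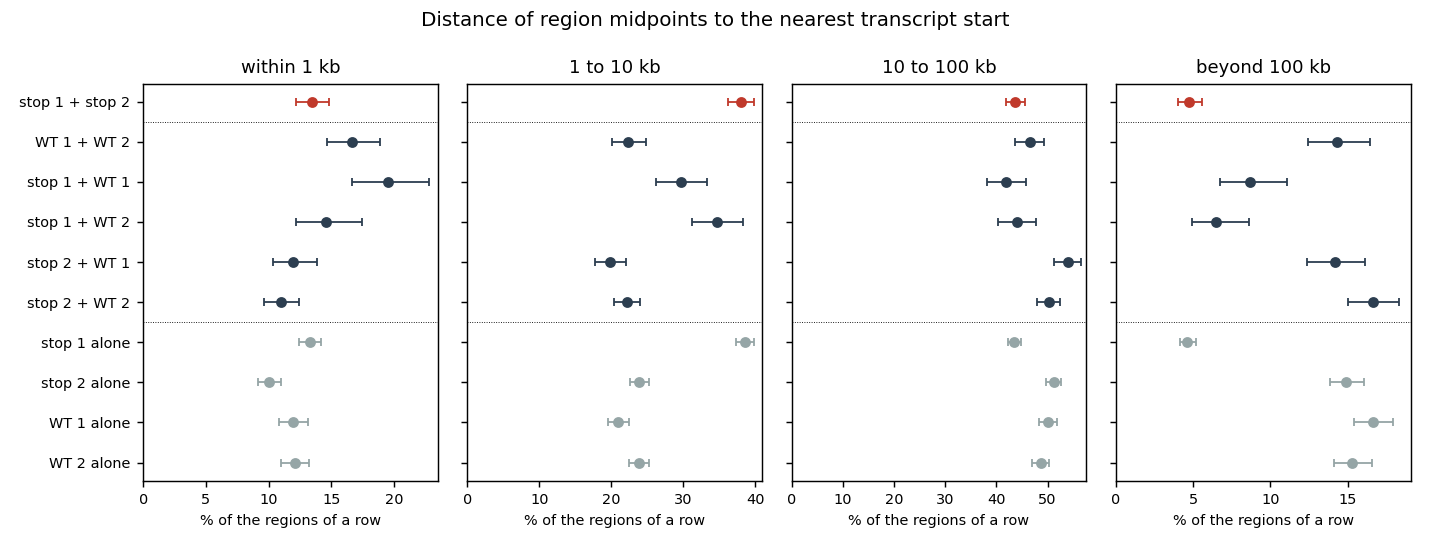
Percent of regions in 4 classes of distance to the nearest transcript start, by the lists that held them (red, both stop cassette lists; dark, the other pairs; grey, a single list); bars are Wilson 95% intervals. Stop cassette-only regions stood at 38.0% between 1 and 10 kb and at 4.73% beyond 100 kb, next to the regions of stop cassette replicate 1 alone (38.5% and 4.63%).

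For the shortened lists as a whole, 53.3% and 49.0% of summits lay within 1 kb of a start in stop cassette replicates 1 and 2, and 57.8% and 55.3% in wild-type replicates 1 and 2. The groups did not overlap. The means were 51.2% ± 3.06 and 56.5% ± 1.78 (SD, n = 2), a difference of -5.38 percentage points, with a 2-sided exact permutation p of 0.333, the smallest that 2 against 2 libraries can give.

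Chromosomes contributed to the stop cassette-only regions much as they did to all regions. Chromosome 11, which is rich in genes, held 213 (7.87%) against 6.54% of all regions, and chromosome X held 56 (2.07%) against 2.33%. The share of a chromosome's regions that were stop cassette-only ran from 3.74% on chromosome 9 to 6.28% on chromosome 11, apart from 0 on chromosome Y. Of 2472 windows of 1 Mb with a region, 1254 held at least 1 stop cassette-only region. The highest window, on chromosome 7 from base 86000000, held 13 of its 51 regions, near genes that include Abhd2, Plin1 and Mfge8. The window with the next highest count, on chromosome 10 from base 80000000, held 12.

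Near En1 there was no stop cassette-only region. En1 lies on chromosome 1 between 122498995 and 122505873, and the nearest such region was chr1:122050785-122051289, 447706 bp from the gene in an intron of 3110009E18Rik. Its percentiles were 64.7 and 65.3, and wild-type replicate 2 as deposited had a summit 19 bp away, below the score used.

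Of the 10 highest-ranked regions, 6 lay in introns, 3 between genes and 1 at a transcript start. The top region was chr8:3535973-3536488, in an intron of Pnpla6, which encodes a phospholipase of nerve and other cells. It stood at percentile 93.2 in stop cassette replicate 1 and 89.4 in replicate 2, and the nearest wild-type summits were 13750 bp and 19415 bp away. The next, chr11:120267088-120267667 in an intron of Nploc4, a cofactor of the p97 segregase, stood at 90.4 and 89.9. Neither region had a wild-type summit within 10 kb in any deposited list.

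Ranked after these was a region in an intron of Vps36, a subunit of the ESCRT-II complex, at 93.2 and 85.6. An intron of Shroom2, which encodes an actin-binding protein, stood at 92.3 and 85.8. An intergenic region 727883 bp from the start of Slc8a1, the sodium-calcium exchanger gene, stood at 89.7 and 88.2. None of these had a wild-type summit closer than 15618 bp in the lists as deposited.

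Others in the top 10 were in the uncut list of wild-type replicate 2. A region 6097 bp from the start of Cebpe, a granulocyte transcription factor gene, stood at 94.0 and 83.9, and the nearest summit of that list was at 0 bp. The same 0 bp held for a region in an intron of Kdm3a, which encodes a histone demethylase, at 90.2 and 87.7, and a summit 7 bp away was found for the region near Gtpbp4, a gene of ribosome assembly, at 89.9 and 86.8. The remaining top regions were at the start of Gm12839 (88.3 and 88.6) and in an intron of Aven, an apoptosis inhibitor gene (90.9 and 85.5). The highest region in a coding exon was in Ankrd40 (87.6 and 75.7) and the highest in a UTR lay in that of Zc3hav1, an antiviral gene, with the start of its neighbour Zc3hav1l nearest (86.6 and 87.7).

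Nearest genes were spread widely. The nearest transcript start was that of a protein-coding gene for 76.2% of the stop cassette-only regions, of a pseudogene for 5.83%, of a lincRNA for 3.18% and of an snRNA for 2.07%. In the mixed pairs with stop cassette replicate 1 the protein-coding share was 76.7% and 73.8%, in those with replicate 2 it was 65.0% and 69.0%, and in the wild-type pair 67.1%. By nearest protein-coding gene, the regions fell on 2304 of 22225 genes (10.4%), and 1979 of these had a single region. Genes with a Gm or Rik name took 10.3% of the regions, zinc finger genes named Zfp 1.33%, ribosomal protein genes 0.52%, olfactory receptor genes 0.37% and histone genes 0.18%.

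A few genes were nearest to several stop cassette-only regions. Immp2l, which encodes a mitochondrial peptidase and spans 1305899 bp, had 7 of its 20 regions. Cited2, which encodes a partner of the CBP and p300 coactivators, is 2446 bp long and had 6 of 36, which ran from base 16291641 to base 17447978 of chromosome 10, and the gene itself lies from 17443034 to 17445479. Ank3, the ankyrin-G gene, had 5 of 22. Abhd2, Agpat4, Asb1, Chd7 (a chromatin remodeller), Dnajb9, Gcap14 and Mmrn1 (a protein of platelets and endothelium) had 4 each. Of these 10 genes, Cited2 (2) and Chd7 (1) had regions held by the wild-type pair alone, a class that makes up 2.23% of all merged regions. The genes were picked by their count of stop cassette-only regions, so these counts are a description.

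Few stop cassette-only regions lay nearest to limb genes. In 9 lists of limb genes together, 24 of 215 genes (11.2%) were nearest to 26 regions, 0.96% of the stop cassette-only regions (0.66 to 1.40), beside 10.4% of all protein-coding genes with such a region. The share of regions was 2.33% over all merged regions and 3.71% in the wild-type pair. It was 1.89% and 2.02% in the mixed pairs with stop cassette replicate 1, 3.62% and 4.25% in those with replicate 2, 1.59% for replicate 1 alone and 2.60% for replicate 2 alone. With the lists as deposited it was 1.94%, above the 1.48% of the pair of stop cassette replicate 1 and wild-type replicate 1.

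Among limb transcription factors, 7 of 43 genes were nearest to 9 regions, among them Dlx5, Lhx9, Lmx1b, Pbx3, Sp8 and Tbx3. The Lmx1b region, nearest to the gene that sets dorsal limb identity but within an intron of Fam125b, stood at percentiles 58.0 and 74.3 and was the only region for the dorsoventral list of 6 genes. The Tbx3 region, chr5:119948422-119948940, lay 171997 bp from the start of this digit patterning gene at 67.6 and 71.1, with no wild-type summit within 48605 bp. The Dlx5 and Lhx9 regions had a summit of wild-type replicate 2 as deposited at 421 bp and 0 bp.

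Signalling genes were read beside the 10.4% of all protein-coding genes with a region. Wnt genes with a region were 5 of 43 (11.6%): the receptor gene Fzd9, the R-spondin receptor gene Lgr6, the R-spondin gene Rspo2, the effector Tcf7l2 and the ligand Wnt5b. BMP genes were 3 of 20 (15.0%), with the ligands Bmp2 and Bmp4 and the inhibitory Smad6. Hedgehog genes were 2 of 14 (14.3%), the co-receptor gene Boc and the repressor Sufu. These shares were near that of all genes. Among Hox genes 1 of 41 (Hoxb6) and among FGF genes 0 of 19 had a region. The Bmp4 region, chr14:47184651-47185161, lay 174562 bp from the gene's start at 45.9 and 56.4. Cartilage genes were 3 of 19 (Nkx3-2, Sox5 and the master regulator Sox9), and muscle precursor genes were 3 of 14 (Eya2, Hgf and Six4).

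Lists of other cell types are also given beside the 10.4% of all protein-coding genes. Ectoderm genes had a region for 0 of 15. Endothelial genes had one for 2 of 16 (12.5%, Lmo2 and Pecam1) and liver genes for 2 of 16 (12.5%, Foxa2 and Ttr), near the share of all genes. Neural factors had one for 6 of 20 (30%), among them Atoh1, Mnx1, Neurog2, Olig1 and Pou3f2. In the wild-type pair 15% of the neural factors had a region, beside 4.74% of all protein-coding genes. In the mixed pairs with stop cassette replicate 1 it was 10% and 0, beside 2.74% and 2.95%. In both mixed pairs with replicate 2 it was 20%, beside 5.2% and 7.26%. Blood genes had a region for 3 of 13 (23.1%): Gata1 and Klf1, which encode the main erythroid activators, and Gfi1b, a repressor of blood cells. The Gata1 region, chrX:7548337-7548896, lay in an intron at percentiles 85.0 and 77.6. The Klf1 region lay 652 bp from the start at 84.8 and 67.7, and the Gfi1b region 760 bp from the start at 77.9 and 82.2. The nearest summits of wild-type replicate 2 as deposited were 65 bp from the Gata1 and 886 bp from the Gfi1b region.

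A longer list of erythroid and haem genes (68 matched), added after motif values had been seen, had 23 genes with a region (33.8%, beside 10.4% of all protein-coding genes). They took 28 regions, 1.03% of the stop cassette-only regions (0.72 to 1.49). They include the haem synthesis enzymes Urod, Cpox and Fech, the transferrin receptor Tfrc, the iron carrier Slc25a37, the membrane skeleton genes Epb4.1 and Add2, the red cell pyruvate kinase gene Pklr and the transcription factor Myb. Gata1, Klf1, Gfi1b and Lmo2, given above, are also among the 23. The Tfrc region stood at percentiles 79.7 and 71.1, the Urod region, in a coding exon of the neighbouring Zswim5, at 68.9 and 84.1 and the Pklr region, 67 bp from a start, at 75.5 and 61.7. The highest-ranked Epb4.1, Add2 and Cpox regions had a summit of wild-type replicate 2 as deposited at 0, 0 and 32 bp. For those of Urod, Fech, Tfrc, Slc25a37, Pklr and Myb it was 1613 bp away or further. A list of 34 macrophage and myeloid genes, added in the same way, had 4 genes with a region (Fcgr3, Irf8, Lcp1 and Vav1).

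At equal list length and 250 bp, the erythroid share was highest in classes held by stop cassette replicate 1. It was 1.52% for regions of that library alone (88 regions, 46 genes), 0.94% and 1.16% in its mixed pairs, 0.38% and 0.26% in the mixed pairs of stop cassette replicate 2, 0.31% for replicate 2 alone and 0.43% in the wild-type pair. This order did not hold in every setting. With lists as deposited, the mixed pairs of stop cassette replicate 1 had 0% (of 135 regions) and 1.72%. At 50 bp they had 0.71% and 0.49%, beside 0.51% in the wild-type pair. Outside the stop cassette-only regions, 259 regions of stop cassette replicate 1 were nearest to a gene of this list (0.84%), against 179 (0.53%) in stop cassette replicate 2, 173 (0.56%) in wild-type replicate 1 and 178 (0.55%) in wild-type replicate 2. Leaving these regions out lowers the stop cassette libraries only, since no wild-type list held them. With them included, stop cassette replicate 1 had 287 of 33694 placed regions and replicate 2 had 207 of 36557. Counted by genes, the list had a region for 5 of 68 in the wild-type pair (beside 4.74% of all protein-coding genes), 6 and 8 in the mixed pairs of stop cassette replicate 1 (beside 2.74% and 2.95%), and 5 and 4 in those of replicate 2 (beside 5.2% and 7.26%). For regions of stop cassette replicate 1 alone it was 46 of 68, beside 18.6%, and for replicate 2 alone 13 of 68, beside 14.3%. Blood marker starts, given above, were open in all lists for Gata1. In these bulk libraries, more cells of a type and more open chromatin per cell cannot be told apart, and the part of blood cells in the result was not tested.

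**Figure D3:**
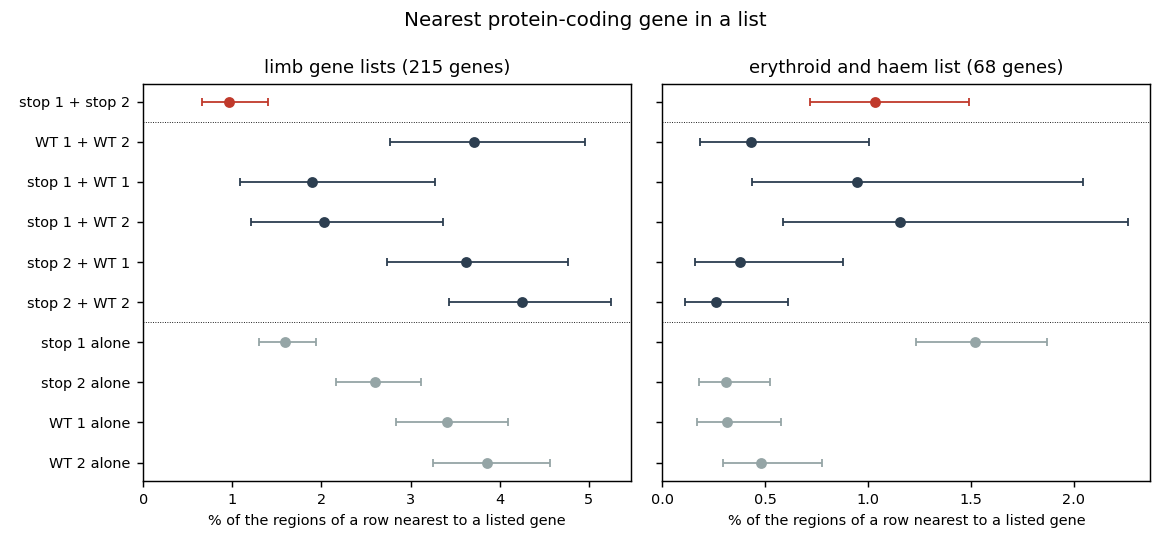
Percent of regions whose nearest protein-coding gene is in the limb lists (left) or in the erythroid and haem list (right), by the lists that held them; bars are Wilson 95% intervals and colours are as for the distance classes. Stop cassette-only regions stood at 0.96% for limb genes, against 3.71% in the wild-type pair, and at 1.03% for erythroid genes, against 0.43%.

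The DNA letters of the regions divided the classes in a similar way. In the central 501 bp of the 2704 placed regions, a GATA motif match (AGATAA, both strands) was found in 879 stop cassette-only regions (32.5%, 30.8 to 34.3), against 19.9% of all merged regions. The share was 17.3% in the wild-type pair (15.2 to 19.6), 30.02% and 24.6% in the mixed pairs with stop cassette replicate 1, and 19.1% and 18.4% in those with replicate 2. Regions of stop cassette replicate 1 alone had 34.7%, those of replicate 2 alone 22.5%, and those of wild-type replicates 1 and 2 alone 20.8% and 19.3%. The share for stop cassette-only regions was the highest of the 6 pairs at every extension and list length tried. With lists as deposited the lead was small, 30.9% against 30.6% in the pair of stop cassette replicate 1 and wild-type replicate 1. At 50 bp the stop cassette-only regions had 26.0%. The mixed pairs with stop cassette replicate 1 then had 17.4% and 16.4%, close to the 15.5% and 15.3% of those with replicate 2.

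Stricter forms of the motif were rarer in every class. A longer GATA motif (AGATAAG), which lies within matches of the first, was found in 13.0% of stop cassette-only regions and 3.89% of the wild-type pair's. A GATA motif spaced from an E-box part, as bound by GATA1 with TAL1 (CTG and GATAA with 8 bases between them), was found in 3.81% and 0.43%. In regions of stop cassette replicate 1 alone these shares were 14.9% and 4.39%. The mixed pairs with stop cassette replicate 1 had the longer motif in 11.7% and 8.84%, and those with replicate 2 in 4.45% and 4.25%. The spaced motif was found in 3.32% and 3.62% of the former and in 1.28% and 1.78% of the latter. Beyond 1 kb from a start and at 45 to 50% GC, the shorter GATA motif stood at 32.4% in stop cassette-only regions, 22.8% in the wild-type pair and 37.7% (30.6 to 45.3), 31.9%, 16.8% and 18.9% in the mixed pairs in the order above. Under this restriction on distance and GC, the pair of stop cassette replicate 1 and wild-type replicate 1 had the highest share.

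Outside the stop cassette-only regions, the GATA share was 19.1% in the regions of stop cassette replicate 1, 16.1% in those of replicate 2, and 15.6% and 15.2% in those of wild-type replicates 1 and 2. Beyond 1 kb from a start these shares were 27.9%, 22.4%, 22.5% and 21.4%. Stop cassette replicate 1 was thus the highest of the 4 libraries in both sets. Leaving out the stop cassette-only regions changes the stop cassette libraries only. With these regions included and at any distance, the GATA share was 20.2% in stop cassette replicate 1 and 17.3% in replicate 2. The part of replicate 1 in the motif share of the stop cassette-only regions was not tested.

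An AP-1 match (TGANTCA) was found in 19.5% of stop cassette-only regions (18.0045 to 20.99), the highest of the 6 pairs. The other pairs ran from 12.2% (wild-type pair) to 15.7%, regions of stop cassette replicate 1 alone had 20.8% and all regions 12.8%. A homeodomain match (TAATTA) went the other way, with 10.8% in stop cassette-only regions (9.68 to 12.02). It was found in 14.8% of the wild-type pair's regions, 10.9% and 9.42% in the mixed pairs with stop cassette replicate 1, and 17.3% and 19.3% in those with replicate 2.

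The CTCF core divided the classes differently. It was found in 16.2% of stop cassette-only regions (14.8 to 17.6), and among the mixed pairs of stop cassette replicate 1 in 10.9% of the regions shared with wild-type replicate 1 and 16.96% of those shared with the other wild-type list. The mixed pairs of stop cassette replicate 2 had 7.77% and 9.97%, and the wild-type pair had 7.35%. Regions of stop cassette replicate 1 alone stood at 9.86%, so here the stop cassette-only regions were not like the regions of that shortened list alone.

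**Figure D4:**
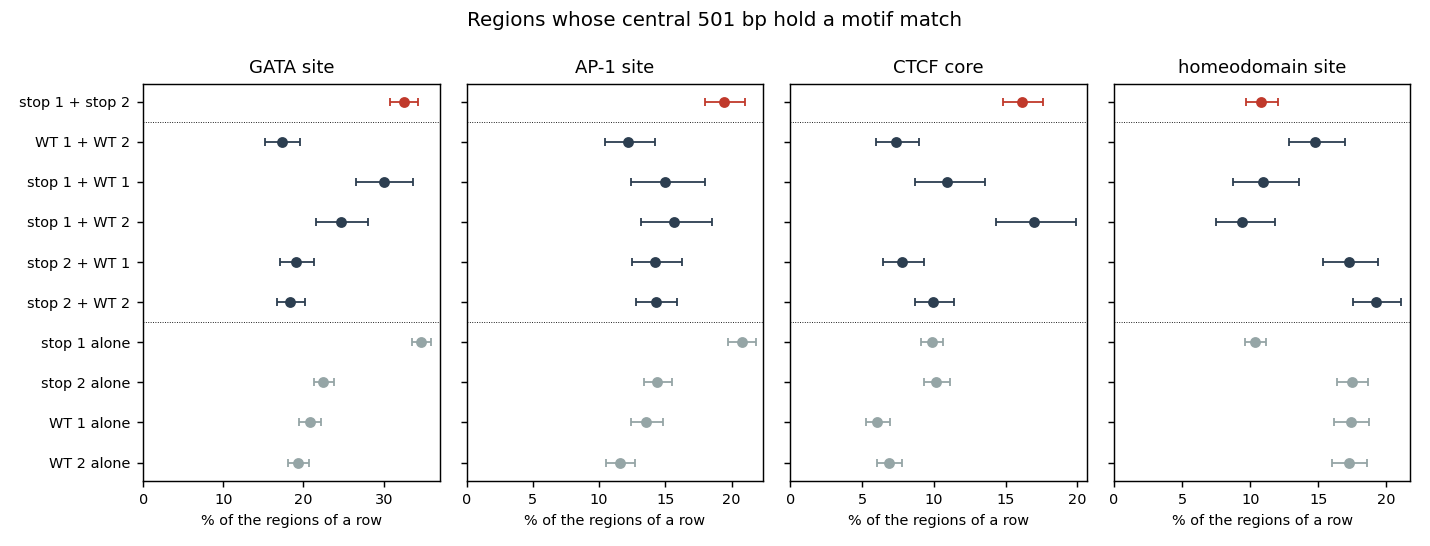
Percent of regions with a motif match in the central 501 bp, by the lists that held them; bars are Wilson 95% intervals and colours are as for the distance classes. GATA and AP-1 shares of stop cassette-only regions (32.5% and 19.5%) lay near those of stop cassette replicate 1 alone (34.7% and 20.8%), and the CTCF core share (16.2%) lay above it (9.86%).

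Among themselves, the stop cassette-only regions changed in letters with rank. In 4 rank groups of 676 regions, from the lowest to the highest mean percentile, GATA matches were found in 27.8%, 28.7%, 34.9% and 38.6%, and AP-1 matches in 14.8%, 15.8%, 20.3% and 26.9%. CTCF core matches went down, from 18.8% and 17.8% to 16.4% and 11.7%, as did homeodomain matches, from 13.2% to 8.58%. Rank came from the scores that chose the regions, and these shares are given as a description.

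**Figure D5:**
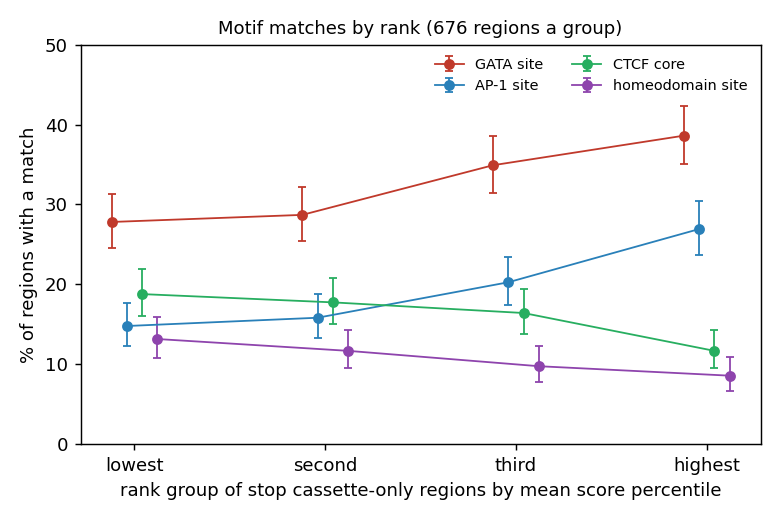
Percent of stop cassette-only regions with a motif match in 4 groups of 676 regions ordered by mean score percentile; bars are Wilson 95% intervals. GATA matches stood at 27.8% in the lowest group and 38.6% in the highest, and CTCF core matches at 18.8% and 11.7%.

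The motifs mostly marked different regions. Of the 2704 placed regions, 612 (22.6%) had a GATA match only, 302 (11.2%) an AP-1 match only and 294 (10.9%) a CTCF core match only. Both GATA and AP-1 matches were in 168 (6.21%), all 3 motifs were in 12, and 1185 (43.8%) had none of them. GATA matches were found in 37.5% of intronic, 31.5% of intergenic and 24.5% of start regions. Regions with a GATA match had a median percentile of 67.4 in stop cassette replicate 1 and 65.3 in replicate 2; those with a CTCF core match had 58.0 and 65.3. The 682 placed regions that the uncut list of wild-type replicate 2 held had a GATA match in 29.5%, and the other 2022 in 33.5%.

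Of 6 motifs often found at promoters, 4 were less common than in regions held by all lists, and the CCAAT and TATA boxes were more common. The GC box (GGGCGG) was found in 18.5% of stop cassette-only regions, 25.2% of the wild-type pair's and 60.6% of those held by all 4 lists. An ETS motif (CCGGAAG) was found in 3.96%, 3.63% and 14.2% in the same order, the NRF1 core (GCGCAN followed by GCGC) in 0.33%, 0.78% and 7.07%, the CCAAT box (CCAAT) in 46.9%, 45.8% and 42.9%, the CACCC box (CCACNCC) in 40.7%, 38.1% and 50.03%, and the TATA box (TATAAA) in 23.8%, 22.6% and 11.3%. The median GC content of stop cassette-only regions was 47.9%, against 49.7% in the wild-type pair and 59.9% in all 4 lists.

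Motifs of mesenchyme and limb factors were compared with the wild-type pair, and some of them also with the mixed pairs. Stop cassette-only and wild-type pair regions had a MEIS match (TGACAG) in 31.0% and 29.6%, a TEAD match (GGAATG) in 23.6% and 29.2%, a RUNX match (TGTGGTT) in 11.6% and 10.03%, and a Twist E-box (CATATG) in 8.51% and 9.77%. A SOX match (AACAATG) was in 6.14% and 6.48%, a TCF/LEF match (ATCAAAG) in 5.55% and 7.95%, and a HOX13 match (TTTACGA) in 0.96% and 1.99%. A PU.1 match (GAGGAAG), of the main myeloid factor, was in 18.05% and 17.5%, an EBF match (CCCNNGGG) in 14.6% and 20.7%, and the general E-box (CANNTG), which includes the Twist E-box, in 93.0% and 92.6%. The mixed pairs are given for the motifs that follow, first those with stop cassette replicate 1, then those with replicate 2. TEAD matches were in 22.9% and 23.6%, then 31.3% and 28.9%. EBF matches were in 14.5% and 18.4%, then 16.0% and 15.4%. TCF/LEF matches were in 7.11% and 6.38%, then 7.54% and 7.82%. HOX13 matches were in 1.90% and 1.30%, then 2.19% and 2.15%. A match describes letters and not binding.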

How the data were processed

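Peak lists of 4 ATAC-seq libraries were used. The authors aligned reads with Bowtie2 2.2.6 and used Picard, on mm9, per the submitters' processing notes. Per the peak names in the deposited lists, duplicates and mitochondrial reads were removed and a mapping quality of 30 was applied. The peak caller and any shift of reads for transposase binding are not given in the sources used here. The deposited score behaves as −log10 of a q-value: its lowest value is 1.30 to 1.31, that of a q-value of 0.05. Peaks were listed per library, and the score was used only to rank peaks within a list.

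Lists were shortened to 51701 scores (ties by file order), and summits were extended by 250 bp and merged. Regions were annotated at their midpoints with GENCODE M1 on NCBIM37, a region at a start being within 1 kb. Sequences were searched for 22 motifs. Named regions are the 10 highest by mean percentile, the highest of each location class, the genes with most regions, the limb list genes, the region nearest to En1 and those at the edge of the rule. Some genes that this rule names are not reported here. The regions and gene lists were chosen with earlier results of these data known; the erythroid and myeloid lists, the longer GATA, GATA-TAL, PU.1 and CACCC motifs and the Nploc4, Kdm3a and Gata1 sequences were added after motif values had been seen.

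Shares have Wilson 95% intervals, and start shares of the lists were compared with an exact permutation test. On simulated lists, 199 of 200 planted stop cassette-only regions and 200 of 200 planted wild type-only regions were recovered among 20382 regions. The simulated lists were not shortened, and each planted region had a summit in both lists of its genotype. The simulation therefore checks only the merging and assignment steps, and says nothing about the regions found here. Deviations from the genotype means were nearly uncorrelated between same-numbered libraries (0.028 over regions). With 2 libraries a genotype, this cannot tell whether same-numbered libraries were processed together. Python 3.11.15, pandas 2.3.3, numpy 2.4.6, scipy 1.17.1, pyfaidx 0.9.0.4 and matplotlib 3.10.9 were used.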

Additional observations from a re-analysis of the deposited data

How the results depend on the processing

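The lists hold no read counts, and 2 libraries a genotype limit every comparison. Extensions of 50, 100 and 500 bp, lists as deposited or of 40000 or 30000 summits, other ties, a reciprocal overlap of 50%, autosomes only and exclusion of wild-type summits of the uncut lists were tried. The region count was 4627 at 50 bp, 3912 at 100 bp, 3867 with reciprocal overlap, 7483 with lists as deposited and 1551 at 30000. The share at starts was 38.1%, 30.3% and 9.29% at 50, 100 and 500 bp, 11.7% as deposited, 16.3% at 40000, 19.99% at 30000 and 33.9% with reciprocal overlap. The intergenic share was 29.9%, 33.5% and 43.6% at 50, 100 and 500 bp, 37.98% at 30000 and 32.1% with reciprocal overlap. The median distance was 4111, 6157 and 10592 bp at 50, 100 and 500 bp, 10977.5 bp as deposited, 8656 bp at 40000, 7779 bp at 30000 and 5363 bp with reciprocal overlap. The GATA share, whose alternatives were chosen after seeing the data, was 26.0% at 50 bp, 29.3% at 100 bp, 35.6% at 30000, 26.9% with reciprocal overlap, 17.97% in a window of 201 bp and 12.98% for the longer motif.

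Leaving out each library in turn, so that 1 list of that genotype sufficed, gave higher counts: 4216 (without wild-type replicate 1), 4737 (without wild-type replicate 2), 6943 (without the first stop cassette library) and 8501 (without the second). The ranges were 11.4% to 15.6% at starts, 39.8% to 44.97% intergenic, 9426 to 14735.5 bp in median distance and 26.4% (without stop cassette replicate 1) to 34.0% with a GATA match. The difference in start share between the lists kept its sign in every setting. It was -11.4 percentage points with lists as deposited, -6.39 with starts within 500 bp, -4.96 at 30000 and -7.54 to -3.22 without a library. With the replicate block it was -5.38, and the exact p of 0.5 is the smallest that 2 pairs allow.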
